A study of Danio rerio with 9 samples.

Results

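The comparison described here is that of zebrafish embryos given a morpholino against sf3b1 with embryos given a control morpholino, made on the whole-number counts of 6 RNA sequencing libraries, 3 per group, out of the 9 libraries of the series. A morpholino (MO) is an antisense oligonucleotide that is injected into the early embryo and blocks either the splicing or the translation of its target RNA. The groups are titled control MO and sf3b1 MO, and the group not used here also received As2S2, an arsenic sulfide. The series states as its purpose the rescue by As2S2 of red cell maturation through smad7 and TGF-beta. Its text speaks of a knockout model, whereas the sample titles name morpholinos. The count columns are headed ko and wt, and they were taken as sf3b1 MO and control MO. Strain, age of the embryos, dose of the morpholinos, its target site on the RNA and the number of clutches are not stated in the labels, which name trunk tissue for all groups. Of 21109 rows with an Ensembl or assembled-transcript identifier, 20723 hold counts and were compared, of which 17762 are Ensembl genes and 2961 are assembled transcripts.

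SF3B1 is the largest protein of the SF3b complex, which belongs to the U2 small nuclear ribonucleoprotein and holds it on the branch point of an intron before the intron is cut out. Every cell that splices RNA needs it, and cells with many spliced transcripts to make, such as dividing and differentiating cells, are known to be sensitive to its loss. In people, somatic mutations of SF3B1 are known from myelodysplastic syndromes with ring sideroblasts, in which red cell precursors mature poorly. In zebrafish, loss of sf3b1 is known to disturb neural crest and blood development.

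The 3 libraries of control MO summed to 28702980, 25177824 and 26384381 counts, and those of sf3b1 MO to 21942696, 22861664 and 26197696. On the log2 scale libraries of 1 group correlated at 0.952 to 0.958 and libraries of different groups at 0.903 to 0.913. The first principal component held 51.8% of the variance. No library stood apart within its group. Mitochondrially encoded genes took 5.87 to 5.93% of the counts in control MO and 7.27 to 7.81% in sf3b1 MO. Nothing in the labels ties a replicate to its own clutch, and a p-value here reflects the spread between libraries, which may be technical. A level is given in CPM, the count per 1000000 of the TMM-scaled library size, and it grows with the length of a transcript, so levels are compared between groups and not between genes. Fewer cells of a type and less RNA per cell cannot be told apart in such bulk libraries.

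The labelled tissue was checked against markers. Transcripts of the eye and the head were abundant in every library, which goes against the label of trunk tissue. The 9 photoreceptor markers summed to 4809 to 4983 CPM in control MO and 3884 to 4061 CPM in sf3b1 MO, and the rod opsin gene rho alone stood at 1504, 1517 and 1638 CPM in control MO and 1371, 1402 and 1367 CPM in sf3b1 MO. The 13 head and forebrain markers that were listed, of 14, summed to 618 to 629.8 CPM in control MO and 759 to 782 CPM in sf3b1 MO. The 5 lens markers summed to 2779 to 2817 CPM and 1935 to 2014 CPM. The head and forebrain sum was thus higher in sf3b1 MO, and the photoreceptor and lens sums were lower, as were those of trunk tissue. The 7 markers of trunk skeletal muscle summed to 6053 to 6422 CPM in control MO and 2395 to 2505 CPM in sf3b1 MO, and the 7 markers of the spinal and body axis to 166 to 168 CPM and 106 to 111 CPM. The groups did not overlap in any of these 5 sums. Single markers did not all follow them, by the call rule given below. The photoreceptor markers gnat2 and pde6c were not called, and the others were lower. A longer list of 56 photoreceptor genes had a median log2 fold change of 0.06. Of the head and forebrain markers foxg1a, emx1, emx3, dlx2b and tbr1b were not called, lhx2b was lower and the others were higher. The axis markers other than evx1 and tbxta are hoxa9a, hoxb9a, hoxc10a, hoxd10a and hoxc11a. These Hox genes are counted again among the Hox genes below. The labels do not say how the tissue was taken, and the part of this difference in the results on muscle, skin, Hox, eye and nerve genes was not tested. Blood markers (4 of 4 listed) summed to 475 to 482 CPM in control MO and 420.1 to 447 CPM in sf3b1 MO, and the 2 liver markers to 13.3 to 15.2 CPM and 11.7 to 16.9 CPM. Of the heart markers only myl7 was listed, of the exocrine pancreas markers only prss1, and of the 3 yolk markers none.

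A gene was called when its edgeR quasi-likelihood p-value, adjusted by Benjamini and Hochberg over all 20723 rows, was under 0.05. By this rule 10592 rows, 51.1% of those tested, were called, 25.2% higher and 25.9% lower in sf3b1 MO. A second rule also asked for a change of at least 2-fold and called 11.8%, 3.99% higher and 7.77% lower. Most changes were small, with 14475 rows (69.9%) within 1.5-fold, and the median log2 fold change over all rows was -0.02. In 60.1% of rows the libraries of the groups did not overlap. With a background this high, the counts of gene lists below are read against these shares.

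The direction of change depended on the level. Among the 9166 rows with a mean of 1 to 10 CPM, 5.88% were called at least 2-fold higher and 12.3% at least 2-fold lower. Among the 1849 rows of at least 100 CPM, 1016 were called higher and 416 lower, but 31 were at least 2-fold higher and 77 at least 2-fold lower. Abundant transcripts therefore more often rose than fell, while falls were the larger changes. Of the assembled transcripts, 892 were called higher and 490 lower, with a median log2 fold change of 0.16, against 4340 and 4870 of the Ensembl genes, with a median of -0.03. The plot of change against level shows these rows together.

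**Figure D1:**
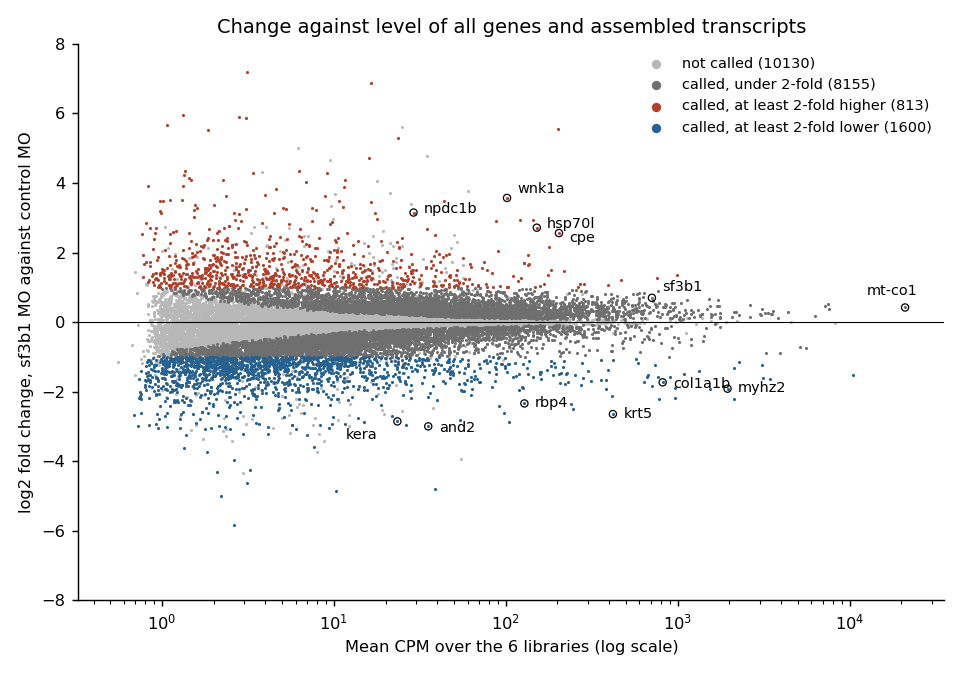
Log2 fold change of sf3b1 MO against control MO (y axis) against the mean CPM of the 6 libraries (x axis, log scale) for 20698 rows with counts in both groups. Grey points were not called or were called below 2-fold, red and blue points were called at least 2-fold higher or lower, and the spread widens towards low levels, where most of the large falls lie.

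The RNA of the targeted gene stood higher in each library labelled sf3b1 MO. The gene sf3b1 (ENSDARG00000056138) stood at 534, 546 and 541 CPM in control MO and 888, 889 and 853 CPM in sf3b1 MO. All 3 sf3b1 MO libraries lay above all 3 control MO libraries (log2 fold change 0.70, SE 0.03, edgeR adjusted p = 2e-10). The smad7 gene, which encodes an inhibitor of TGF-beta receptors, stood at 39.4, 38.1 and 39.7 CPM in control MO and 53.9, 56.3 and 48.8 CPM in sf3b1 MO. It was also higher in every sf3b1 MO library (log2 fold change 0.44, SE 0.07, edgeR adjusted p = 9.8e-05). Because a morpholino may leave the amount of its target RNA as it is, this level is no check of the labels, and sf3b1 MO stands throughout for the libraries so labelled. Other columns of the same deposited table, not used here, run in the opposite direction for sf3b1, smad7, jun and hbbe3, so the direction of these genes is uncertain. A few blood genes (alas2, tal1, hbae3, hbbe2 and hbbe1.1) are also recorded unevenly between the columns of that table. Whether other rows agree between these columns was not tested here.

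Genes of the complex to which Sf3b1 belongs changed little. Of 26 genes of the SF3b and SF3a complexes and their U2 partners, 11 were called higher and 2 lower, none by 2-fold, with a median log2 fold change of 0.08. These calls made up a share of the list near the 51.1% of all rows. With upper quartile scaling in place of TMM the split was 6 higher and 4 lower. Whether the split depends on sf3b1 itself, whose direction is uncertain as given above, was not tested. The largest rise was in phf5a, which encodes a small SF3b subunit that contacts Sf3b1 and the branch point, at 5.51, 5.31 and 5.67 CPM in control MO and 9.99, 11.9 and 10.7 CPM in sf3b1 MO. The groups were separate at a low level (log2 fold change 0.98, SE 0.14, edgeR adjusted p = 4.8e-05). The gene gpatch8, for a G-patch protein, rose by 0.73 on the log2 scale, puf60a, for a U2-associated factor that binds polypyrimidine tracts, by 0.38. The SF3a subunit gene sf3a3 and the SF3b subunit gene sf3b3 fell by 0.25 and 0.12, the second no longer called without control MO replicate 3 (-0.11).

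The next list holds regulators of splice site choice. Of 30 genes of SR proteins, which bind exons and recruit the splicing machinery, and of the kinases that phosphorylate them, 22 were called higher and 3 lower, with a median of 0.31. The kinase gene clk2a stood at 166, 166 and 174 CPM in control MO and 324, 304 and 325 CPM in sf3b1 MO. Its paralogue clk2b stood at 19.8, 21.2 and 19.4 CPM in control MO and 43.7, 43.5 and 43.6 CPM in sf3b1 MO. Both Clk2 kinase genes were higher in all sf3b1 MO libraries, by 0.91 and 1.12 on the log2 scale, with SEs of 0.04 and 0.07. Their relatives clk4b (0.62) and clk4a (0.58) and the SR protein genes srsf7b (0.88) and srsf11 (0.66) rose as well. The other family of SR protein kinases went down, with srpk1b at -0.82 and srpk1a at -0.39. Factors of nonsense-mediated decay, which removes RNAs with premature stop codons, had 4 of 17 genes higher and 5 lower. The share called, 52.9%, was near the 51.1% of all rows, and the median was 0.02. Among them magoh of the exon junction complex was at 0.53, upf1 at 0.22 and upf3a at -0.43.

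Among Ensembl genes with a symbol, at least 20 CPM and separate groups, the largest rise was in wnk1a, a kinase gene whose mammalian counterpart controls salt transporters. It stood at 17.8, 13.8 and 15.7 CPM in control MO and 196, 176 and 191 CPM in sf3b1 MO. The next was npdc1b, a gene expressed in neurons in mammals, at 5.82, 6.53 and 5.29 CPM in control MO and 53.1, 47.4 and 56.3 CPM in sf3b1 MO. Both were low in control MO and raised in every sf3b1 MO library, with log2 fold changes of 3.57 (SE 0.10) for wnk1a and 3.15 (SE 0.10) for npdc1b. The carboxypeptidase E gene cpe, whose enzyme trims peptide hormones in secretory granules, stood at 61.2, 62.2 and 54.1 CPM in control MO and 357, 348 and 342 CPM in sf3b1 MO. Its groups were far apart (log2 fold change 2.56, SE 0.05, edgeR adjusted p = 1.9e-12). The gene list of neuroendocrine cells, to which cpe belongs, held further changes that are given with the nervous system. The other large rises were the hsp70 genes described with the stress genes, the ferritin-like gene fthl31 (2.04), the serpin gene serpina10a (2.04), the zinc finger gene znf1179 (1.97), rapgef2a, for an exchange factor of Rap GTPases (1.96), and arrdc3b, for an arrestin-domain adaptor (1.93).

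The 12 largest falls by the same rule included genes of the fin fold, the epidermis and connective tissue, and others. The actinodin gene and2, for a protein of the rigid fibres of the fin fold, stood at 64.96, 67.5 and 56.4 CPM in control MO and 7.28, 8.81 and 7.49 CPM in sf3b1 MO. The aerolysin-like gene aep1 stood at 182, 182 and 189 CPM in control MO and 25.3, 24.1 and 25.5 CPM in sf3b1 MO. Both were several-fold lower in every sf3b1 MO library, with log2 fold changes of -3.001 (SE 0.10) and -2.88 (SE 0.05). The same held for the fucosyltransferase gene fut9d (-2.97), the keratocan gene kera (-2.86), the hemidesmosome collagen gene col17a1a (-2.80), the keratin gene krt5 (-2.65), the retinol carrier gene rbp4 (-2.34) and the genes si:dkey-202l22.6 (-2.72), si:dkey-183i3.5 (-2.50), zgc:86896 (-2.40) and zgc:136930 (-2.36), whose roles are not stated here. The row with the largest fall, a transcription factor gene given as sox4a (ENSDARG00000096389), rests on unequal libraries. It stood at 106, 6.46 and 111 CPM in control MO and 2.89, 2.12 and 3.05 CPM in sf3b1 MO, so 1 control MO library lay near the sf3b1 MO level. Its log2 fold change of -4.79 (SE 1.301, edgeR adjusted p = 0.04) lost its call without any library other than that one (-4.90 to -4.38).

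By difference in CPM instead of fold, mitochondrial RNAs gained most and contractile RNAs lost most. The cytochrome oxidase gene mt-co1 stood at 18037, 18098 and 17903 CPM in control MO and 23742, 23352 and 25171 CPM in sf3b1 MO. This is a modest rise on a very abundant RNA (log2 fold change 0.42, SE 0.03, edgeR adjusted p = 2.9e-08). Other large gains were those of mt-co2, mt-co3, mt-cyb and the prothymosin gene ptmab, which went from 2183 ± 42.2 to 3063 ± 29.4 CPM (mean ± SD, n = 3, as in all values with ± below). The largest losses were all genes of skeletal muscle: the actin gene actc1b, the tropomyosin gene tpma, the calcium pump gene atp2a1, the myosin genes myhz1.1 and myhz1.2 and the parvalbumin gene pvalb1. The plot of 12 genes by library shows the size of these changes beside the spread of each group.

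**Figure D2:**
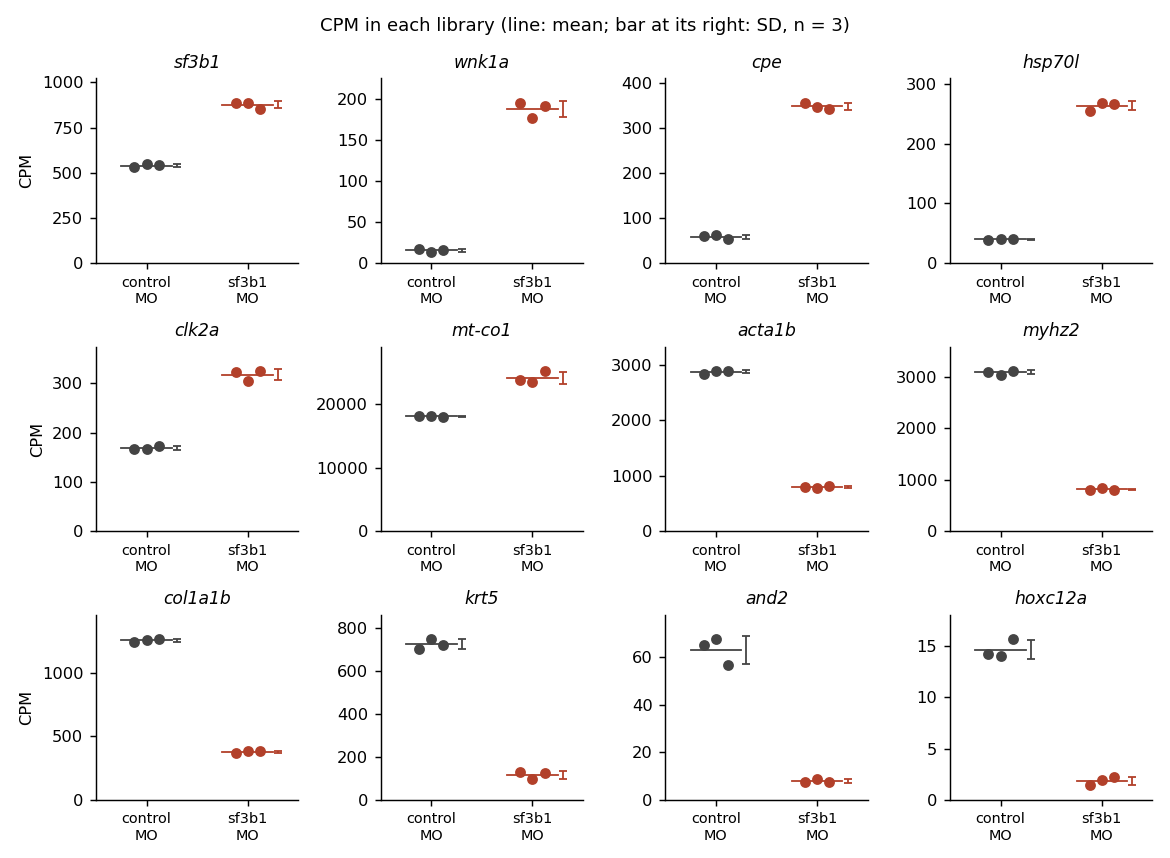
CPM of 12 genes (y axis, from 0) in each library of control MO and sf3b1 MO, with a line at the group mean and a bar of 1 SD (n = 3). In every panel the groups are separate: wnk1a, cpe, hsp70l, clk2a, mt-co1 and, with the doubt on its direction given in the text, sf3b1 are higher in sf3b1 MO, and acta1b, myhz2, col1a1b, krt5, and2 and hoxc12a are lower.

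Skeletal muscle RNAs fell broadly. Of 48 genes of fast muscle, 40 were called lower and 1 higher, 28 lower by at least 2-fold, and the median log2 fold change was -1.15 against -0.02 over all rows. The summed level of the list was 64310 CPM in control MO and 28512 CPM in sf3b1 MO, or 0.443 times the control. The fast myosin heavy chain gene myhz2 stood at 3097, 3042 and 3118 CPM in control MO and 813, 835 and 803 CPM in sf3b1 MO. The skeletal actin gene acta1b stood at 2840.4, 2884 and 2889.7 CPM in control MO and 793, 788 and 819 CPM in sf3b1 MO. In both genes the sf3b1 MO libraries were far below the control MO libraries, with log2 fold changes of -1.92 and -1.84 and an SE of 0.02 for each. The myosin gene myhz1.3 (-1.93), the actin gene acta1a (-1.91), tpma (-1.63) and atp2a1 (-1.61) fell by like amounts. The fast myosins are near-identical copies in tandem, and whether they shared reads was not tested.

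A few fast muscle genes departed from the rest. The myosin light chain gene mylpfa, although a standard marker of fast fibres, stood at 619.8, 641 and 563 CPM in control MO and 658, 690.2 and 620.4 CPM in sf3b1 MO. The AMP deaminase gene ampd1 stood at 399, 405 and 410.4 CPM in control MO and 399, 395 and 411 CPM in sf3b1 MO. Their groups overlapped and neither was called (edgeR adjusted p = 0.17 and 0.79), although DESeq2 called mylpfa higher (0.12) and upper quartile scaling called ampd1 lower (-0.07). The troponin I gene tnni2a.3, at a low level, rose by 0.71 on the log2 scale.

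Of the slow muscle genes 14 of 22 were called lower and none higher, with a median of -0.68. The slow myosin gene smyhc1 fell from 232 ± 25.3 to 85.1 ± 1.08 CPM, the troponin gene tnnc1b by 1.63 and the light chain gene myl10 by 1.44 on the log2 scale. Of 29 regulators of muscle formation, 18 were called lower and 1 higher. The differentiation factor gene myog went from 16.1 ± 1.41 to 8.401 ± 0.549 CPM and the determination factor gene myod1 fell by 0.59, while the myogenic factor gene myf6 fell by 1.48. The 1 that rose was lbx2, for a homeobox factor of muscle precursors, at 0.53, and the progenitor genes myf5 and pax7a were not called. Genes of the muscle acetylcholine receptor followed the fibres, with chrnb1 at -1.49, chrna1 at -0.96 and chrnd at -0.88. Of 18 genes on a heart muscle list 9 were called lower and 2 higher, but the list includes genes that skeletal muscle also expresses, such as actc1a (-1.47). The atrial and ventricular light chain gene myl7, at 0.113 to 0.63 CPM in control MO and 1.01 to 1.197 CPM in sf3b1 MO, lay close to the threshold and was not called without control MO replicate 1 (log2 fold change 1.57), control MO replicate 3 (0.86) or any sf3b1 MO library (1.24 to 1.36).

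Skeletal and connective tissue genes fell as well. Of 30 genes of cartilage matrix, 26 were called lower and 1 higher, 11 lower by at least 2-fold, with a median of -0.86. The cartilage gene ucmab, for a small matrix protein, stood at 25.3, 26.7 and 26.6 CPM in control MO and 3.16, 4.41 and 3.09 CPM in sf3b1 MO. The main cartilage collagen gene col2a1a stood at 1213, 1166 and 1168 CPM in control MO and 619, 596 and 569 CPM in sf3b1 MO. Both groups of values were separate for each gene, with log2 fold changes of -2.88 (SE 0.14) and -0.99 (SE 0.03). The matrilin gene matn3a (-2.10), the chondromodulin gene cnmd (-1.95), the collagen gene col11a1a (-1.46) and sox9a, for the transcription factor that specifies cartilage, (-1.47) fell too, while sox5, for a partner of Sox9, was at 0.16 and not called with upper quartile scaling.

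Of 20 genes of bone and tendon, 17 were called lower and none higher, with a median of -0.91 and a summed level 0.341 times that of control MO. The type I collagen gene col1a1b stood at 1247, 1259 and 1269 CPM in control MO and 367, 382 and 385 CPM in sf3b1 MO. All sf3b1 MO libraries lay far below all control MO libraries (log2 fold change -1.73, SE 0.03, edgeR adjusted p = 1.3e-14). Fibromodulin fmoda (-1.99), periostin postnb (-1.82), tenomodulin tnmd (-1.74), col1a1a (-1.71) and col1a2 (-1.57) moved with it. Of the regulators that precede these matrix genes, the bone factor gene sp7 and the tendon factor gene scxa were not called. The first stood at 2.37 ± 0.143 CPM in control MO and 2.87 ± 1.01 CPM in sf3b1 MO. The second stood at 7.25 ± 1.32 CPM in control MO and 6.72 ± 0.128 CPM in sf3b1 MO. Both levels were low, where depth limits the test.

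Genes of the basement membrane and the notochord, the rod that supports the early body axis, had 22 of 28 members lower and 1 higher. The notochord collagen gene col8a1a, at 7.94, 7.24 and 7.24 CPM in control MO and 0.916, 0.617 and 0.849 CPM in sf3b1 MO, showed the largest fall on the list (-3.23, SE 0.22). The anchoring fibril collagen gene col7a1 (-1.57), the notochord factor gene tbxta (-1.48), the laminin gene lamc1 (-0.97) and the collagen IV gene col4a5 (-0.82) fell as well. The member that rose was shha, for a Hedgehog signal of the notochord and floor plate, at 0.47. Of 37 genes of the fin fold and limb, 19 were called lower and 5 higher, 10 lower by at least 2-fold, with the actinodin genes and3 at -2.76 and and1 at -1.12 and the homeobox gene msx2b at -1.248.

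Epidermal genes showed the lowest median of the 61 lists. Of 41 keratinocyte genes, 37 were called lower and none higher, 26 by at least 2-fold, with a median of -1.21, and their sum was 0.299 times that of control MO. The basal keratin gene krt5 stood at 704, 749.9 and 721 CPM in control MO and 129, 94.7 and 123 CPM in sf3b1 MO. The type I keratin gene cyt1l, the most abundant of these, stood at 1579, 1579 and 1586 CPM in control MO and 344, 361 and 346 CPM in sf3b1 MO. In both the groups were separate (log2 fold change -2.65, SE 0.14, edgeR adjusted p = 0.00019), with -2.17 for cyt1l. The keratins cyt1 (-1.89) and krt4 (-1.60) fell by similar amounts. The gene of the basal keratinocyte factor tp63 fell far less, from 13.6 ± 0.247 to 10.5 ± 1.53 CPM (log2 fold change -0.37, SE 0.12, edgeR adjusted p = 0.021). That call was lost without any control MO library (log2 fold change -0.39 to -0.36) or without sf3b1 MO replicate 1 (-0.27). Of 22 genes of ionocytes, the salt-transporting cells of the skin, and of mucous cells, 13 were called lower and 2 higher. The mucin gene muc5.2 fell from 16.7 ± 1.63 to 2.01 ± 0.389 CPM, the ammonium transporter gene rhcga by 2.38 and the ion cotransporter gene slc12a10.2 by 2.12 on the log2 scale.

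Pigment cells of the body, unlike those of the retina, come from the neural crest. Of 35 pigment genes 20 were called lower and 8 higher. The pteridine enzyme gene gch2 of yellow pigment cells fell from 98.1 ± 3.06 to 33.6 ± 3.31 CPM (log2 fold change -1.55, SE 0.07, edgeR adjusted p = 7.3e-10). The purine enzyme gene pnp4a, needed for the reflecting crystals of iridophores, fell by 1.04 and gpnmb by 1.11. Among genes of melanophores, pmela stood at 168, 170.3 and 165 CPM in control MO and 181, 185 and 189 CPM in sf3b1 MO, tyrp1b at 0.14 and the melanophore channel gene trpm1b at 0.52. The sf3b1 MO libraries were all slightly higher in pmela, but with upper quartile scaling neither pmela nor tyrp1b was called. The melanophore factor gene mitfa fell by 0.78. Whether the RNA of pmela, tyrp1b and trpm1b came from melanophores or from pigmented cells of the eye was not tested.

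**Figure D3:**
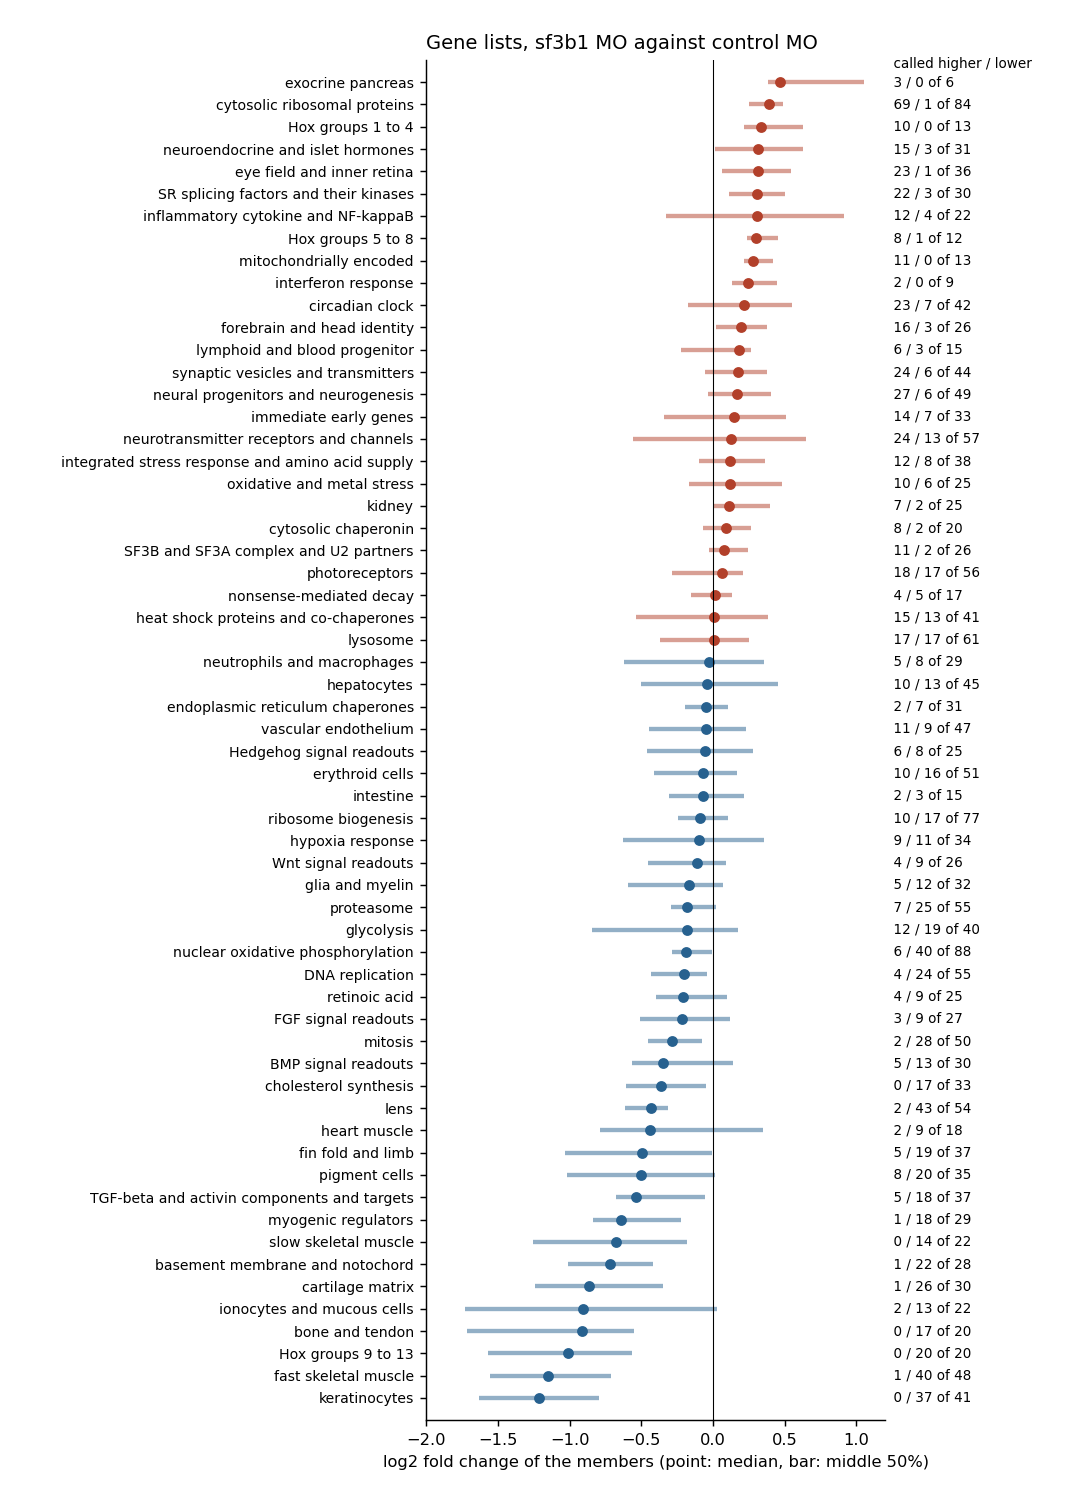
Median log2 fold change (point) and middle 50% of members (bar) of 60 gene lists, sorted by median, with the numbers called higher and lower of those tested at the right. Keratinocyte, fast muscle and posterior Hox lists have the lowest medians, and the exocrine pancreas list, with 6 members tested, and the ribosomal protein list have the highest.

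The Hox genes changed in an order that follows the body axis. Hox genes of low paralogue number are used in the hindbrain and anterior trunk, and those of high number in the posterior trunk and tail. Of 13 genes of groups 1 to 4, 10 were called higher and none lower, with a median of 0.34, and of 12 genes of groups 5 to 8, 8 were called higher and 1 lower, with a median of 0.30. Total-count and upper quartile scaling each made the second split 7 and 2. All 20 genes of groups 9 to 13 were called lower, 11 of them by at least 2-fold, with a median of -1.01.

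The medians of the posterior groups went down step by step, from -0.44 in group 9 to -0.77 in group 10, -1.07 in group 11, -1.14 in group 12 and -2.40 in group 13. The largest fall was in hoxc12a, at 14.2, 14.1 and 15.7 CPM in control MO and 1.47, 1.895 and 2.2002 CPM in sf3b1 MO. No library of 1 group came near those of the other (log2 fold change -2.98, SE 0.17, edgeR adjusted p = 8.8e-09). The 4 genes of group 13 ranged from -2.60 in hoxb13a to -2.23 in hoxa13b, and hoxc13a stood at 7.38, 5.63 and 6.19 CPM in control MO and 1.05, 0.881 and 1.54 CPM in sf3b1 MO. At the other end, hoxb9a stood at 61.1, 59.6 and 64.3 CPM in control MO and 44.9, 49.01 and 42.5 CPM in sf3b1 MO. The fall was thus present but slight in group 9 (log2 fold change -0.44, SE 0.06, edgeR adjusted p = 8.3e-05). The change of sign lay between groups 6 and 9, where few genes were tested. In group 8 hoxb8a and hoxb8b rose by 0.25 and 0.42, and hoxc8a fell by 0.34. The only gene of group 7, hoxb7a, at -0.32, was not called. It was called without control MO replicate 1 (-0.39) and with total-count or upper quartile scaling. The call of hoxc8a was lost without control MO replicate 1 (log2 fold change -0.22), without sf3b1 MO replicate 2 (-0.28) or without sf3b1 MO replicate 3 (-0.33). The largest rise was in hoxb1a, the hindbrain gene, at 0.901, 1.496 and 1.24 CPM in control MO and 3.94, 3.44 and 2.93 CPM in sf3b1 MO (log2 fold change 1.503, SE 0.26, edgeR adjusted p = 0.00034). Its levels were low but separate. In the same libraries the sums of muscle, photoreceptor and lens markers were lower and that of head and forebrain markers was higher, as given above. Their part in this order was not tested. The axis sum was lower too, but it consists mostly of Hox genes of groups 9 to 11 and is no separate measure. Its other markers were evx1 (0.095, not called) and tbxta (-1.48).

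**Figure D4:**
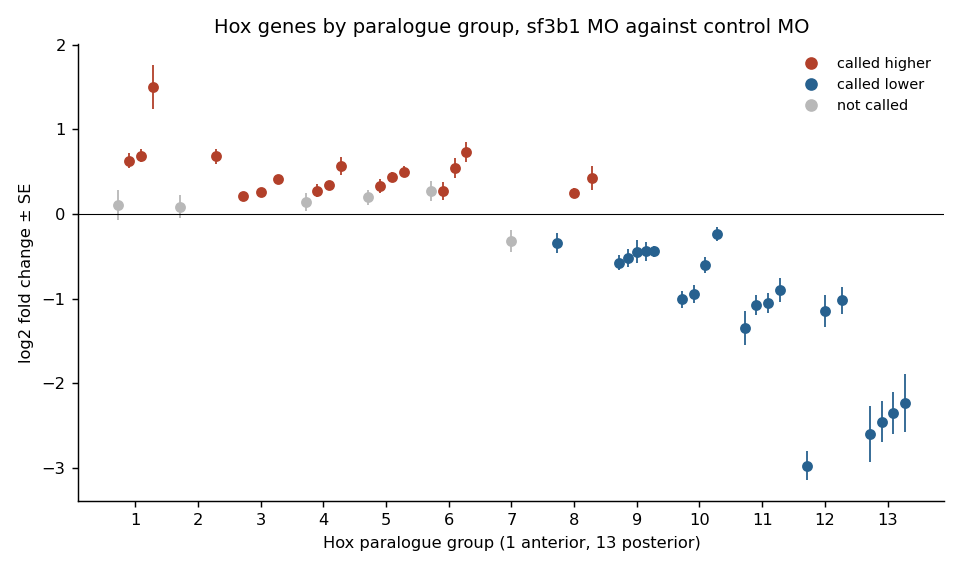
Log2 fold change ± SE of sf3b1 MO against control MO (y axis) for 45 Hox genes by paralogue group from 1 to 13 (x axis), coloured by call. Groups 1 to 6 lie above 0, groups 9 to 13 below it, and group 13 lies between -2.60 and -2.23.

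Genes of neural progenitors, synapses and receptors were called higher more often than lower, with small medians. Those of glia and myelin, given below, were more often lower. Of 49 genes of neural progenitors and neurogenesis, 27 were called higher and 6 lower, with a median of 0.17, and 24 and 11 with upper quartile scaling. The hairy-related genes her12 and her15.1 rose by 1.01 and 0.95, and the proneural gene neurog1 by 0.50. The related gene her13 fell by 0.77, and the Notch receptor genes notch2 and notch1b fell by 0.81 and 0.69. The neuronal RNA-binding protein gene elavl4 stood at 767, 778 and 753 CPM in control MO and 1026, 1025 and 1063 CPM in sf3b1 MO. Its relative elavl3 stood at 528, 529 and 541 CPM in control MO and 507, 484 and 539 CPM in sf3b1 MO. The first rose by 0.44 and the second, whose groups overlapped, was not called, although it was called lower without sf3b1 MO replicate 3 (-0.10) and with upper quartile scaling. The receptor gene notch3 stood at 209.8, 218 and 97.96 CPM in control MO and 57.4, 64.1 and 66.04 CPM in sf3b1 MO. In control MO replicate 3 it was lower than in the other control libraries, and its fall (-1.49, SE 0.36, edgeR adjusted p = 0.031) was called without control MO replicate 3 but not without any other library (-1.53 to -1.30).

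Of 44 genes of synaptic vesicles and transmitters 24 were called higher and 6 lower, and of 57 genes of neurotransmitter receptors and channels 24 and 13. The second list is not confined to neurons, and its largest fall was in chrnb1 (-1.49) of the muscle acetylcholine receptor. The glutamate receptor gene grin1b stood at 414, 408 and 437 CPM in control MO and 741, 721 and 741 CPM in sf3b1 MO. All sf3b1 MO libraries were higher (log2 fold change 0.81, SE 0.03, edgeR adjusted p = 1.7e-10). Other glutamate receptor genes rose with it, among them grin1a (0.65), gria3b (0.86) and grik1a (1.29). The vesicle sensor gene syt1a (0.61), the membrane fusion genes snap25b (0.47) and stxbp1a (0.44) and tph2, for serotonin synthesis (1.27), were higher. The fusion protein gene vamp2 (-0.75) and the glutamate transporter gene slc17a6a (-1.15) were lower.

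Peptide processing enzymes moved apart. While cpe rose as given above, the genes of the convertases that cut the same prohormones fell, pcsk1 from 6.79 ± 0.506 to 2.53 ± 0.626 CPM and pcsk2 from 20.3 ± 1.06 to 10.1 ± 1.43 CPM. The neurokinin gene tac3a rose from 1.67 ± 0.662 to 5.503 ± 0.835 CPM. In the list of neuroendocrine cells and islet hormones 15 of 31 genes were called higher and 3 lower.

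Of 32 genes of glia and myelin 12 were called lower and 5 higher, 6 lower by at least 2-fold, a share of calls near that of all rows. The radial glia gene gfap stood at 631, 612 and 619 CPM in control MO and 448, 451 and 432 CPM in sf3b1 MO. The myelin protein gene pmp22b stood at 257, 265 and 252 CPM in control MO and 104, 105 and 109.5 CPM in sf3b1 MO. Both were lower in all sf3b1 MO libraries, by 0.48 and 1.28 on the log2 scale. The myelin genes mag (-2.004) and cldnk (-1.56) fell further. Those that rose included the astroglial genes glula (0.51), for glutamine synthetase, slc1a2b (0.16), for a glutamate transporter, and mlc1 (0.53).

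Of 26 genes of forebrain and head identity 16 were called higher and 3 lower, with a median of 0.20. The forebrain factor gene foxg1b stood at 129, 131 and 129.7 CPM in control MO and 198, 199 and 197 CPM in sf3b1 MO (log2 fold change 0.61, SE 0.03, edgeR adjusted p = 7.6e-09). The midbrain-hindbrain gene en2a rose by 0.97, and lhx2b, used in the forebrain and eye, fell by 0.43. The groups of foxg1b were tight and separate.

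Eye genes moved in both directions. Of 36 genes of the eye field and inner retina 23 were called higher and 1 lower, with a median of 0.31. The eye factor gene pax6a stood at 239, 241 and 241 CPM in control MO and 358, 372 and 360.1 CPM in sf3b1 MO. It rose in every sf3b1 MO library (log2 fold change 0.60, SE 0.03, edgeR adjusted p = 2.9e-09), together with six6a (0.84), six3b (0.59) and rx3 (0.59). Of 56 photoreceptor genes 18 were called higher and 17 lower. Of the photoreceptor factors, crx rose from 319 ± 2.09 to 501 ± 23.8 CPM and six7 from 89.4 ± 1.96 to 172 ± 2.05 CPM, while nr2e3 fell by 0.53. Genes of the light-sensing cascade were found on both sides. Those that fell included the cone arrestin gene arr3a from 272 ± 2.14 to 148 ± 8.29 CPM, the ultraviolet cone opsin gene opn1sw1 at -0.44 and rho at -0.17. Those that rose included gngt2a, a low-level transducin subunit gene, from 2.36 ± 0.112 to 16.6 ± 2.22 CPM, and the cone opsin kinase gene grk7b (0.76). The outer segment gene prph2la rose as well (0.72). Opsin genes have close copies, and whether they shared reads was not tested.

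Lens genes mostly fell, and most of the falls were below 2-fold. Of 54 lens genes, 43 were called lower and 2 higher, 3 lower by at least 2-fold, with a median of -0.43. Between 0 and 1 members were higher when any library was left out. The crystallin gene crybb1 stood at 1622, 1604 and 1624 CPM in control MO and 1194, 1186 and 1266 CPM in sf3b1 MO. The crystallin gene cryba1b stood at 979.8, 958 and 971 CPM in control MO and 617, 674 and 624 CPM in sf3b1 MO. Their falls of 0.41 and 0.60 were larger than the spread between libraries. The lens water channel gene mipb was at 112 ± 4.64 CPM in control MO and 56.1 ± 1.38 CPM in sf3b1 MO and fell, and crybgx, at -1.70, showed the largest fall on the list.

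Red cell genes, which the stated purpose of the series concerns, were called near the background rate. Of 51 erythroid genes, 16 were called lower and 10 higher, with a median of -0.07 against -0.02 over all rows. The membrane transporter gene rhag of red cells stood at 63.8, 66.2 and 63.8 CPM in control MO and 26.9, 31.2 and 28.7 CPM in sf3b1 MO. The heme synthesis gene alas2 stood at 12.9, 10.9 and 10.8 CPM in control MO and 5.91, 4.32 and 2.39 CPM in sf3b1 MO. Both were lower in every sf3b1 MO library, with log2 fold changes of -1.16 (SE 0.07, edgeR adjusted p = 1e-08) and -1.46 (SE 0.31, edgeR adjusted p = 0.007). The value of alas2 carries the doubt given above on its uneven record between columns. The red cell factor gene klf17 (-1.34) and the transferrin receptor gene tfr1a (-1.15) fell at low levels.

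Other erythroid genes gave mixed results. The main embryonic globins hbbe1.1 and hbae3 stood at 491 ± 17.6 CPM in control MO and 495 ± 7.26 CPM in sf3b1 MO (not called) and at 445 ± 4.998 CPM in control MO and 412 ± 14.3 CPM in sf3b1 MO (log2 fold change -0.11). The anion exchanger gene slc4a1a of the red cell membrane, at 16.8 ± 0.655 CPM in control MO and 16.9 ± 0.714 CPM in sf3b1 MO, was not called. The master regulator gata1a fell by 0.33 with overlapping groups and was not called without control MO replicate 2 (-0.27), control MO replicate 3 (-0.28), sf3b1 MO replicate 1 (-0.29) or sf3b1 MO replicate 2 (-0.29). The gene tal1, for an earlier blood factor, rose by 0.25. The cytoskeleton gene add2, also used in neurons, rose from 45.5 ± 1.76 to 122 ± 1.92 CPM, tspo by 0.87 and blvrb by 0.90. The globin gene hbbe3, in question above, was at 0.173 to 0.338 CPM in control MO and 3.59 to 4.99 CPM in sf3b1 MO. Globin genes are near-identical copies, so their separate levels are uncertain, and hbbe1.1, hbae3 and tal1 carry the same doubt as alas2.

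White blood cell and vessel genes gave mixed results. Of 29 genes of neutrophils and macrophages 8 were called lower and 5 higher, or 44.8%, below the 51.1% of all rows. The neutrophil genes lyz, from 2.27 ± 0.987 to 0.266 ± 0.07096 CPM, and mpx, from 2.39 ± 0.462 to 0.992 ± 0.373 CPM, fell, while the macrophage genes marco and mfap4.1 rose by 1.31 and 1.29, all at low levels. The macrophage gene csf1ra fell by 1.397 and mpeg1.1, at 1.49 ± 0.1199 CPM in control MO and 1.47 ± 0.359 CPM in sf3b1 MO, was not called. Of 47 endothelial genes 11 were called higher and 9 lower, but 9 and 14 with upper quartile scaling. The share called with TMM, 42.6%, was also below that of all rows. The receptor gene tek rose by 0.85 and kdr fell by 1.195, while its relative kdrl was not called.

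Of 41 genes of heat shock proteins and co-chaperones 15 were called higher and 13 lower, 5 higher and 6 lower by at least 2-fold. The inducible chaperone gene hsp70l stood at 39.1, 41.05 and 40.1 CPM in control MO and 254, 269 and 266 CPM in sf3b1 MO. Its copies hsp70.1, hsp70.2 and hsp70.3 showed log2 fold changes of 2.90, 2.94 and 2.94. These 4 genes are near-identical, and whether they shared reads was not tested, but all were higher in every sf3b1 MO library (log2 fold change 2.72, SE 0.04, edgeR adjusted p = 8.4e-15). The co-chaperone gene hsph1 rose by 1.16 and hsp90ab1 by 0.32. The constitutive gene hspa8 stood at 1951, 1958 and 1842 CPM in control MO and 1935, 1946 and 1906 CPM in sf3b1 MO. It overlapped between the groups and was not called. Among those lower were the small heat shock genes hspb7 (-1.95) and hspb6 (-1.43), known from muscle, the muscle chaperone partner bag3 (-1.10), hsp90aa1.1 (-0.80), which folds myosin, the Hsp90 co-chaperone gene ahsa1a (-0.86) and serpinh1b (-1.201), which folds collagen.

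The cell cycle inhibitor gene cdkn1a stood at 6.101, 4.57 and 4.54 CPM in control MO and 2.75, 2.6002 and 2.89 CPM in sf3b1 MO. The cyclin gene ccng1 stood at 304, 319.9 and 319 CPM in control MO and 209.6, 225 and 208 CPM in sf3b1 MO. Both were lower in all sf3b1 MO libraries, by 0.88 and 0.55 on the log2 scale, and mdm2, at 0.17, was not called. In contrast mdm4 rose, from 116 ± 0.928 to 208 ± 1.64 CPM, as did the DNA damage sensors ddb2 (1.249) and xpc (0.78).

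Of 38 genes of the integrated stress response and amino acid supply, 12 were called higher and 8 lower, and 11 and 12 with upper quartile scaling. The share called with TMM, 52.6%, was near the 51.1% of all rows. The regulators atf4a, from 483 ± 2.78 to 716 ± 12.3 CPM, ppp1r15a, from 60.9 ± 3.03 to 124 ± 4.05 CPM, ddit4 (0.92) and atf3 (0.68) rose. Of the enzymes and transporters that Atf4 activates in mammals, mthfd1l fell from 14.2 ± 0.615 to 4.67 ± 0.712 CPM and slc7a5 by 1.58 on the log2 scale. These were the 2 members lower by at least 2-fold. The median of the list was 0.12 and its sum was 1.12 times that of control MO. Chaperones of the endoplasmic reticulum were mostly not called (2 higher and 7 lower of 31, or 29.0%, below the share of all rows). Of this list hspa5 stood at 410.1 ± 11.7 CPM in control MO and 366 ± 13.1 CPM in sf3b1 MO.

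Of 33 immediate early genes 14 were called higher and 7 lower, and 14 and 11 with upper quartile scaling. The AP-1 genes fosl1a, from 2.55 ± 0.955 to 11.7 ± 0.793 CPM, junba (0.81), junbb (0.72) and fosab (0.52) rose. The orphan receptor gene nr4a1 stood at 29.3, 29.4 and 27.1 CPM in control MO and 6.41, 6.65 and 6.48 CPM in sf3b1 MO. Unlike the AP-1 genes it was lower in every sf3b1 MO library (-2.13, SE 0.10), and egr1 fell by 0.54. Of 22 inflammatory genes 12 were called higher and 4 lower. The chemokine gene cxcl18b, from 1.34 ± 0.206 to 7.07 ± 0.715 CPM, the cytokine gene il1b, from 1.51 ± 0.541 to 4.07 ± 1.24 CPM, and the protease gene mmp9 (0.98) rose, and the prostaglandin synthase gene ptgs2b fell by 1.35. Genes of the interferon response had 2 of 9 members higher and none lower, with most of the list not in the table.

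Of 25 genes of oxidative and metal stress 10 were called higher and 6 lower. The metallothionein gene mt2 rose from 6.23 ± 1.53 to 23.2 ± 5.87 CPM and the glutathione reductase gene gsr by 0.98. The peroxiredoxin gene prdx1 rose by 0.71. The antioxidant regulator gene nfe2l2a, from 41.2 ± 2.69 to 18.9 ± 2.91 CPM, and the quinone reductase gene nqo1, from 21.3 ± 0.795 to 8.54 ± 1.32 CPM, fell.

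Cell cycle genes fell more often than they rose. Of 55 genes of DNA replication 24 were called lower and 4 higher, or 22 and 2 without sf3b1 MO replicate 1. The share called with all libraries, 50.9%, was near the 51.1% of all rows, with most of the calls lower. The replicative helicase genes mcm6 and mcm3 fell by 0.73 and 0.65, the clamp gene pcna went from 256 ± 2.83 to 190.1 ± 3.898 CPM and the origin gene orc1 fell by 1.250. The helicase gene mcm7 rose by 0.39 and gmnn, for an inhibitor of origin licensing, by 1.42. Of 50 genes of mitosis 28 were called lower and 2 higher, or 60.0%. The condensin gene ncapg stood at 5.55, 5.12 and 5.33 CPM in control MO and 0.504, 0.793 and 0.425 CPM in sf3b1 MO. The spindle gene hmmr stood at 4.58, 4.25 and 3.53 CPM in control MO and 15.4, 14.7 and 19.8 CPM in sf3b1 MO. These were the largest changes of the list and lay in opposite directions, -3.21 (SE 0.26) and 2.01 (SE 0.15). The kinetochore gene knl1 (-1.199), cdc20 (-0.75) and ccna2 (-0.52) fell.

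The RNAs of the cytosolic ribosome were raised almost as a whole. Of 84 ribosomal protein genes 69 were called higher and 1 lower, none higher by 2-fold, with a median of 0.39, and their summed level was 1.250 times that of control MO. The protein gene rpl5b stood at 459.8, 457 and 445 CPM in control MO and 819, 819 and 804 CPM in sf3b1 MO. The protein gene rpl10 stood at 426, 461 and 418 CPM in control MO and 160.2, 169 and 159.9 CPM in sf3b1 MO. The second was the only one called lower, at -1.42 (SE 0.04), against 0.84 for the first. Upper quartile scaling called 4 of the 84 lower. Genes of ribosome assembly did not share this, with 10 higher and 17 lower of 77, or 35.1% against 51.1% of all rows. With upper quartile scaling 7 of them were higher and 30 lower. Within them utp6 rose from 2.34 ± 1.04 to 17.1 ± 0.588 CPM and the nucleolar helicase gene ddx21 from 104 ± 1.55 to 169 ± 8.11 CPM. Of 55 proteasome genes 25 were called lower and 7 higher, or 22 to 26 and 3 to 4 without control MO replicate 1, control MO replicate 3 or sf3b1 MO replicate 2, with psmd2 at -1.10, psmb5 at -0.93 and psmc4 at 0.64.

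Genes of oxidative phosphorylation went opposite ways in the 2 genomes. Of 13 protein genes of the mitochondrial genome 11 were called higher and none lower, with a median of 0.28 and a sum 1.29 times that of control MO. The NADH dehydrogenase gene mt-nd6 rose by 0.63 and mt-co2 by 0.51. Of 88 nuclear genes of the same complexes 40 were called lower and 6 higher, with a median of -0.18 and a sum 0.837 times that of control MO. These calls made up 52.3% of the nuclear genes, near the 51.1% of all rows. The ATP synthase gene atp5meb fell from 69.4 ± 3.51 to 25.9 ± 1.68 CPM, uqcrc1 by 0.65 and atp5f1b by 0.49 on the log2 scale. In polyA-selected libraries mitochondrial RNAs carry short tails, and a share of them also depends on RNA handling, for which no measure was available here.

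In glycolysis the muscle form of an enzyme fell and its paralogue rose or moved little. Of 40 genes 19 were called lower and 12 higher, 8 lower by at least 2-fold. The pyruvate kinase gene pkmb stood at 349.6, 351 and 356 CPM in control MO and 105, 103 and 111 CPM in sf3b1 MO. Its paralogue pkma stood at 312, 305 and 312 CPM in control MO and 364, 361 and 359 CPM in sf3b1 MO. The first was separate and lower (log2 fold change -1.73, SE 0.04, edgeR adjusted p = 3e-13) and the second separate and slightly higher (0.22). The same contrast was found for glucose phosphate isomerase (gpib -1.91, gpia 0.29), aldolase (aldoab -1.68, aldocb 0.39), phosphoglycerate mutase (pgam2 -1.73, pgam1a 0.46) and phosphofructokinase (pfkma -1.396, pfkpb 0.94). These pairs were put side by side after their values were seen. Of 34 hypoxia genes 11 were called lower and 9 higher, with epas1a, for a hypoxia-inducible factor, at -1.77 and ankrd37 at 1.18.

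Of 33 genes of cholesterol synthesis 17 were called lower and none higher, with a median of -0.36. That is 51.5% called, near the 51.1% of all rows, with every call lower. The enzymes sqlea (-1.41), fdft1 (-1.399) and cyp51 (-1.001) and the regulator srebf2 (-0.43) were among those that fell. Of 42 clock genes 23 were called higher and 7 lower. The activator gene bmal1b, from 4.07 ± 0.619 to 10.997 ± 1.32 CPM, cry5 (1.27), the kinase gene csnk1e (1.01), cry3a (0.69) and the light-induced repressor gene per2 (0.44) rose, and hlfb fell by 1.34. The hour of collection is not in the labels. Of 45 liver genes 13 were called lower and 10 higher, or 51.1%, as over all rows. Among them the retinol carrier gene rbp4 stood at 218, 212 and 213 CPM in control MO and 41.2, 46.8 and 38.9 CPM in sf3b1 MO and the apolipoprotein gene apoa1a at 6.24, 4.84 and 7.54 CPM in control MO and 20.7, 20.6 and 15.7 CPM in sf3b1 MO. They changed in opposite directions, by -2.34 and 1.61 on the log2 scale. The 2 liver markers given above summed to only 13.3 to 15.2 CPM in control MO. Which cells held the rbp4 RNA was not tested.

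The TGF-beta pathway, which the series names, had 18 of 37 components and targets called lower and 5 higher, with a median of -0.54. The number higher was 3 without control MO replicate 1 or 2 or without sf3b1 MO replicate 2 or 3. Among the ligands, tgfb2, at 1.45 ± 0.173 CPM in control MO and 0.358 ± 0.204 CPM in sf3b1 MO, and tgfb3, at 33.2 ± 0.921 CPM in control MO and 20.3 ± 2.31 CPM in sf3b1 MO, were lower, by 1.98 and 0.71 on the log2 scale. Among the receptors, acvr2bb fell by 1.13 and acvr2aa rose by 0.30. Of the signal transducers, smad3a fell by 0.54 and smad4a by 0.65, and smad2 was called higher by a small amount (log2 fold change 0.12, SE 0.05, edgeR adjusted p = 0.043). The call of smad2 was lost with total-count or upper quartile scaling, with the replicate block and without any library other than sf3b1 MO replicate 1 (0.09 to 0.13). The inhibitor smad7 was higher by counts, with the doubt on its direction given above. Among targets that encode matrix, tgfbi stood at 245, 229 and 233 CPM in control MO and 82.6, 83.5 and 83.6 CPM in sf3b1 MO. This was a fall in all sf3b1 MO libraries (log2 fold change -1.499, SE 0.04, edgeR adjusted p = 2.2e-12), beside ccn2b (-2.08) and postnb (-1.82), which is also on the bone and tendon list.

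Readouts of other signals were mixed, with 44.4 to 60.0% of each list called, against 51.1% of all rows. Of 30 BMP genes 13 were called lower and 5 higher, with a median of -0.35. The inhibitor smad6a was at -0.71, and the targets id4 and id2a were at 0.67 and 0.42. The largest fall on the list was in msx2b (-1.25), and id1 was not called (-0.10). Of 27 FGF genes 9 were lower and 3 higher, with the feedback phosphatase gene dusp6 from 75.4 ± 3.35 to 41.9 ± 1.71 CPM and spry4 at -0.45. Of 26 Wnt genes 9 were lower and 4 higher, and the general targets axin2, at 87.3 ± 2.56 CPM in control MO and 85.4 ± 3.09 CPM in sf3b1 MO, and lef1 were not called. Of 25 Hedgehog genes 8 were lower and 6 higher, or 11 and 5 with upper quartile scaling, with the targets ptch1 and gli1 not called. Of 25 retinoic acid genes 9 were lower and 4 higher, or 12 and 3 with upper quartile scaling, with the degrading enzyme gene cyp26a1 at -0.57 and dhrs3a at -1.06.

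A few rows had counts in 1 group alone. Among Ensembl genes, 6 had no count in any control MO library and none lacked counts in all sf3b1 MO libraries. The gene zgc:194221 had 319, 325 and 380 counts in sf3b1 MO and 0 in each control MO library. The receptor gene tnfrsf14 had 167, 151 and 217 counts in sf3b1 MO. Set against a floor of 3 counts per library, they were at least 130-fold and at least 67.8-fold higher. The other 4 were pimr107, ENSDARG00000117011, si:dkey-33c12.5 and cfap157, with 32 to 76 counts per sf3b1 MO library. Among assembled transcripts, 8 had no count in control MO and 11 none in sf3b1 MO.

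Assembled transcripts of 1 locus sometimes changed in opposite directions. Of 381 loci with several assembled transcripts, 17 (4.46%) held transcripts called in both directions. Of the 381, 8 (2.1%) did so by at least 2-fold each way. Over all 2961 assembled transcripts 892 were called higher and 490 lower. Whether 17 loci are more or fewer than these shares alone would give was not tested. At the locus MSTRG.37966, transcript MSTRG.37966.1 stood at 30.8, 33.4 and 28.9 CPM in control MO and 0 in sf3b1 MO. Transcript MSTRG.37966.5 stood at 0 in control MO and 129, 129.6 and 137 CPM in sf3b1 MO. Each was confined to the libraries of a different group. Against the floor the first was at least 242-fold lower and the second at least 1184-fold higher. Their sum was not kept but rose from 31.0 CPM in control MO to 132 CPM in sf3b1 MO. At MSTRG.44874, transcript MSTRG.44874.2 went from 22.2, 26.6 and 26.99 CPM to 0 and MSTRG.44874.5 from 3.43, 0 and 0 CPM to 47.9, 51.96 and 38.8 CPM. At MSTRG.42638, transcript MSTRG.42638.2 went from 32.7, 39.9 and 24.9 CPM to 7.19, 13.9 and 5.33 CPM and MSTRG.42638.1 from 6.83, 4.33 and 10.4 CPM to 79.5, 75.2 and 86.2 CPM. In both loci the library groups were separate for each transcript. The summed level rose from 26.4 to 46.2 CPM at MSTRG.44874 and from 39.7 to 89.1 CPM at MSTRG.42638. Of the 8 loci with 2-fold changes each way, 3 kept a sum within 1.5-fold. The call of MSTRG.44874.5 was lost with DESeq2 and without any library but control MO replicate 1 (log2 fold change 4.71 to 5.40, against 5.28 with all libraries and 13.15 without that one, where control MO has no counts left). That of MSTRG.42638.2 was lost without any library but sf3b1 MO replicate 2 (-2.04 to -1.62). Assembled rows were less even than Ensembl genes: 257 of 2961 (8.68%) had 0 counts in 1 library and at least 50 in another of the same group, against 15 of 17762 (0.084%). The deposited table gives neither a gene name nor coordinates for these loci, so which genes they belong to is not reported here.

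**Figure D5:**
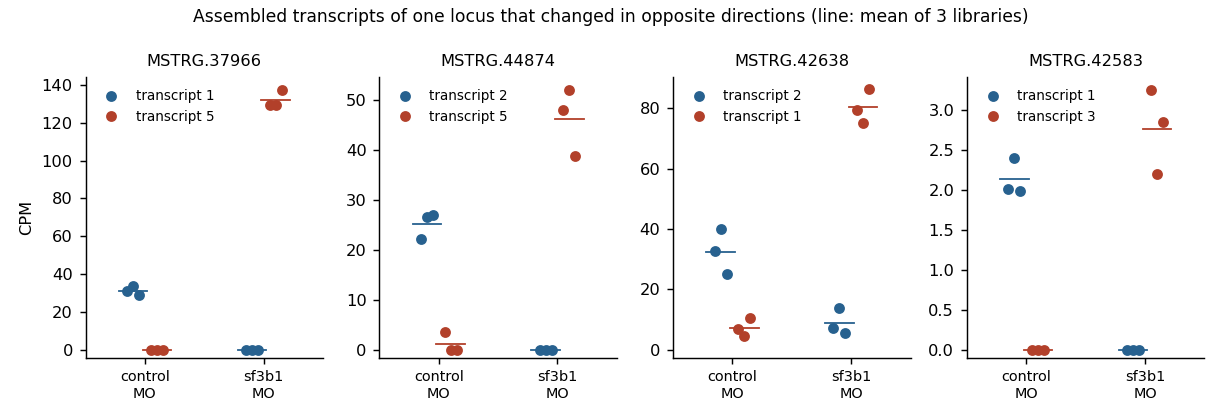
CPM (y axis, from 0, a scale per panel) of 2 transcripts at each of 4 assembled loci in the 3 libraries of control MO and sf3b1 MO, with a line at the mean. In each panel the blue transcript is higher in control MO and the red transcript is higher in sf3b1 MO.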

How the data were processed

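Libraries were made from polyA-selected total RNA with a NEBNext Ultra II kit, per the labels' protocols. The submitters' processing notes name fastp 0.22.0, DESeq2 and GRCz11; how reads were aligned, assembled and counted is not stated there. The authors deposited whole-number counts per gene or assembled transcript, per the file headers, and no other unit was used; 9 further columns of per-sample values were left out. Of 21137 lines, 28 have no gene identifier (14 are blank). Gene names came from the deposited table or, for 1216 Ensembl genes, from a table of names that 17232 identifiers matched.

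Counts were fitted with edgeR 4.0.16 in R 4.3.3 (group means, TMM scaling, robust quasi-likelihood test, default expression filter, which removed 0 rows), with Benjamini-Hochberg adjustment over 20723 rows and a threshold of 0.05. CPM are counts per 1000000 of the TMM-scaled library size. An SE is the absolute log2 fold change divided by the square root of the quasi-likelihood F statistic. It is approximate, above all for large changes. The common biological coefficient of variation was 0.205. Counts were also simulated from these depths and from means pooled over both groups. In them 67% of 100 genes changed 2-fold and 100% of 100 changed 4-fold were found, with 6 other calls among 20723. Every simulated gene had the same coefficient of variation, unlike the data, so these shares do not describe the power for the rows above. Alternatives used DESeq2 1.42.0, other scalings, a block on the replicate number, edgeR's test against a 1.5-fold change, and each library left out in turn.

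The members, the 61 gene lists (some share genes) and the call rules were chosen with earlier results of these data known, so list counts are descriptions with no test. The ribosomal protein list was corrected after its values were seen, by leaving out S6 kinases and a binding protein that its name pattern had caught. Named genes are sf3b1 and smad7, the 12 largest called rises and falls at 20 CPM or more without overlap, the 6 largest gains and losses in CPM, up to 4 called members per list and direction at 4 CPM or more, the 2 most counted members, and further members given by their values; some of these genes and 1 list are not reported here. Levels of near-identical copies are uncertain, as the treatment of shared reads is not stated. With 1 library per replicate number and no statement of what a number marks, libraries were not paired. Gene structure, promoter motifs and sequences were not analysed here.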

Additional observations from a re-analysis of the deposited data

How the results depend on the processing

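The number of rows called was 10592, and 10185 to 10612 with DESeq2 size factors, total counts alone, upper quartile factors or the DESeq2 test. With Ensembl genes alone it was 9612. Using no filter on low counts, or a filter of 1 CPM in 3 libraries, kept the same 20723 rows. Their 10592 calls were thus fixed in advance. The lowest total of a row over the 6 libraries was 84 counts, so the shares called leave out rows below that. At least 2-fold changes numbered 2437, and 2416 to 2566 under the same settings other than Ensembl genes alone (1978). A test against a change of 1.5-fold in place of any change called 2413 rows, 927 higher and 1486 lower; it asks for larger changes by construction. Leaving out each library in turn gave 9256 to 9929 calls and 2398 to 2502 of at least 2-fold. No row called here had the opposite sign under any of these settings. The higher share of calls was 49.4%, and 41.8% with upper quartile factors, which moved the median over all rows from -0.02 to -0.08 and the split of several lists, given beside them. The settings were compared for 305 of the genes and transcripts named above, of which 286 were called. Of these, 10 lost their call without 1 library or more and 8 under another setting, with none reversed.

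With the replicate number as a block in the fit (replicate block), 10220 rows were called, 5063 higher and 5157 lower, of which 10008 were also called without it, and 2464 changed at least 2-fold. Deviations from the group mean correlated at -0.02 to 0.07 between libraries of the same number and at -0.09 to 0.07 between libraries of other numbers, over 13430 genes whose count was 100 or more in all libraries. The numbers were therefore not taken to pair the libraries.

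Depth limits rows of 1 to 10 CPM, whose median SE was 0.23 on the log2 scale, against 0.04 for rows of 100 CPM or more. The planned descriptions by gene structure and promoter motif were not run, as no reference of the build was used here.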
